A study of Rattus norvegicus with 12 samples.

Results

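Levels of 8 rat genes of prostaglandin synthesis, reception and breakdown were followed across 12 RNA sequencing libraries of cultured bone marrow cells. The genes are Pla2g4a, Ptgs1, Ptgs2, Ptges, Ptgis, Hpgd, Ptger2 and Ptger4. They were picked by gene symbol, and all 8 were found in both deposited gene tables, which together list 20400 genes. After treatment with CTGF and then TGF-β1, 6 of the 8 genes fell and the EP2 receptor gene Ptger2 rose, while 10.9% of all genes tested fell and 7.7% rose. Without any 1 of the 3 control libraries, only the falls of Ptgs2 and Ptges passed the test. In the fibrotic cells given docetaxel none of the 8 genes passed the test over all genes. Ptgs1, Ptgs2, Ptges, Pla2g4a and Ptger2 lay above every control library there, as did 7.78% of all genes tested.

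The cells are labelled wild-type (WT) bone marrow mesenchymal stem cells (BMSCs), kept in low-glucose DMEM with chondrogenic induction medium, and each group has 3 libraries. BMSC-C served as control. BMSC-CT was given CTGF, the connective tissue growth factor, during 1 week and TGF-β1 afterwards; both are signals that drive matrix production. BF-C is labelled as fibrotic BMSCs with the treatment "Control", and BF-D as fibrotic BMSCs with docetaxel, a microtubule-stabilizing drug. The design text calls the latter pair induced fibrotic-chondrocytes (iFCs). The labels give neither the docetaxel dose and time nor the way the fibrotic cells were made, and BF-C is not treated as a repeat of BMSC-CT. Nothing in them tells if replicates came from separate cultures, so p-values measure only the spread between these libraries, which may be technical.

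Prostaglandins are lipid signals made from arachidonic acid. The cytosolic phospholipase A2 encoded by Pla2g4a frees arachidonic acid from membranes, and the cyclooxygenases COX-1 (Ptgs1) and COX-2 (Ptgs2) turn it into prostaglandin H2. Terminal synthases then make the final products: microsomal prostaglandin E synthase (Ptges) makes prostaglandin E2, and prostacyclin synthase (Ptgis) makes prostacyclin. Prostaglandin E2 acts on the receptors EP2 (Ptger2) and EP4 (Ptger4), which raise cAMP through the G protein Gs, and 15-hydroxyprostaglandin dehydrogenase (Hpgd) inactivates it. COX-1 is the isoform most cells keep on, whereas COX-2 and Ptges are the forms that inflammatory signals induce. In cartilage and bone marrow, prostaglandin E2 is known as a mediator of inflammation, pain and matrix turnover.

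The listed reads ran from 15580310 to 19870047 per library, and intervals on reads cover counting error only. BMSC-CT replicate 3 stood apart: reads were found in 14621 genes, against 16100 to 17265 in the other BMSC libraries, and its log2 values correlated across genes at 0.878 and 0.895 with replicates 1 and 2, which correlated at 0.977 with each other. BF-D replicate 2 correlated at 0.969 and 0.965 with replicates 1 and 3, against 0.978 between those. Values of the 8 genes are therefore given with and without these libraries, and those of other genes where the call or count changes. The cell label was checked against markers. A list of 17 macrophage genes, all of them found, took 0.918% to 1.10% of reads in BMSC-C and 1.17% to 1.45% in BMSC-CT. Of the same list 14 genes were found in the BF table, where they took 0.00428% to 0.00448% in BF-C and 0.00599% to 0.00661% in BF-D, with Mrc1 at 0 in BF-C and C1qa, C1qb and C1qc not listed. All 12 mesenchymal stromal markers were detected in every group and took 1.19% to 1.49% of reads in BMSC-C, 0.699% to 1.43% in BMSC-CT, 6.09% to 6.32% in BF-C and 4.92% to 5.85% in BF-D. Single genes weigh on these sums: Col1a1 had 86256 reads in BMSC-C and 339913 in BMSC-CT, whereas Dcn had 455704 and 97697. Similar sums therefore do not mean similar levels of each marker. Of 8 chondrocyte markers, Col2a1 and Cnmd are not listed in the BMSC table and Acan and Cnmd not in the BF table, and the whole list took at most 0.000625% of reads. The BMSC libraries thus held macrophage transcripts beside stromal ones, and which cells gave the reads of each member was not tested. In such bulk RNA, fewer cells of a type and less RNA per cell cannot be told apart.

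The 250 bases before the transcription start are shown for Ptgs2 and Ptges, the members with the largest falls, and for Ptger2, the member that rose. They are RefSeq sequences of build GRCr8, printed 5′ to 3′ on the gene's own strand and ending next to the start. Capitals mark every match, on either strand, to 7 motifs searched: the TATA box TATAAA, the cAMP response element TGACGTCA, the C/EBP core TTGCNNAA, the NF-kappaB core GGGANNNNC, the AP-1 site TGANTCA, the E-box CACGTG and the GC box GGGCGG.
Ptgs2 promoter, chr13:64713813-64714062, plus strand: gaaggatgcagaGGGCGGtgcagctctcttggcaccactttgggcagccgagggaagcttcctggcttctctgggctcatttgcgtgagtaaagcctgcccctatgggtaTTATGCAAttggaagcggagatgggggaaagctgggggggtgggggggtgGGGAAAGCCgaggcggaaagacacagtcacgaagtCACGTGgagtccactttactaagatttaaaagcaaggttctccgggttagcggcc
Ptges promoter, chr3:34586988-34587237, minus strand: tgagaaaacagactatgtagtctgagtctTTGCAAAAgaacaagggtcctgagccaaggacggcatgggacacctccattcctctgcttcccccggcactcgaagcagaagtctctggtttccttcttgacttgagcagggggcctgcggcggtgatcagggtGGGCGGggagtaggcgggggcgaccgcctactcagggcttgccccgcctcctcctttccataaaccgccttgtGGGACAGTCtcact
Ptger2 promoter, chr15:20696796-20697045, plus strand: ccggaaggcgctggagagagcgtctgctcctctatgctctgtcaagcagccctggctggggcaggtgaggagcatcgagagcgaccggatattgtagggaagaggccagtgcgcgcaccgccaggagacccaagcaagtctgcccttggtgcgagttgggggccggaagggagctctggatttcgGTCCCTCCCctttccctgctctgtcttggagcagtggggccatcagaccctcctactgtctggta

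The Ptgs2 promoter held 4 matches: a GC box 238 bases before the start, a C/EBP core at 140 bases, an NF-kappaB core at 90 bases and an E-box at 55 bases. The Ptges promoter held a C/EBP core 221 bases before the start, a GC box at 87 bases and an NF-kappaB core at 14 bases, so that 3 of the 4 motifs of Ptgs2 recur there. The Ptger2 promoter held only an NF-kappaB core, at 65 bases. Among 33469 rat promoter windows of 250 bases before and 50 after the start, the C/EBP core was found in 10.6%, the NF-kappaB core in 53.9%, the GC box in 33.1% and the E-box in 6.42%. The remaining motifs were found in 14.2% (TATA box), 1.83% (cAMP response element) and 7.33% (AP-1) of windows, and none of the 3 printed sequences contains one of them. A match is a description of letters and not a measured site. Promoters were matched for 7 of the 8 genes, and a Ptgis promoter was not analysed here.

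To compare genes with one another and across the tables, levels are given as RPKM, the reads per kilobase of gene length scaled to the listed reads of each library. In BMSC-C the order of mean RPKM was Ptges (477 ± 65.0, SD, n = 3), Ptgs2 (322 ± 89.9), Ptgs1 (160 ± 10.8), Pla2g4a (19.6 ± 3.65), Ptger2 (14.4 ± 2.35), Ptger4 (4.70 ± 0.201), Hpgd (0.479 ± 0.162) and Ptgis (0.0339 ± 0.0336). Only Ptges and Ptgs2 had overlapping libraries among neighbours in that order. The inducible pair thus led in the BMSC-C libraries, and the prostaglandin E2-degrading enzyme stood near the bottom.

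The order in BMSC-CT was different. Ptgs1 led at 54.5 ± 6.84 RPKM and Ptger2 followed at 25.1 ± 9.93. Ptges (5.54 ± 1.04), Pla2g4a (3.79 ± 2.93), Ptgs2 (2.45 ± 1.74) and Ptger4 (1.03 ± 0.694) came next, each overlapping its neighbour in this group of 4. Ptgis (0.0556 ± 0.0962) and Hpgd (0.0234 ± 0.0203) overlapped at the bottom.

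Both BF groups had the inducible pair on top again. BF-C had 308 ± 0.496 RPKM for Ptges, 220 ± 7.98 for Ptgs2, 67.9 ± 1.41 for Ptgs1, 29.4 ± 0.924 for Pla2g4a and 6.43 ± 0.343 for Ptger4. Below them stood Hpgd at 1.25 ± 0.0950 and Ptger2 at 1.19 ± 0.0874, which overlapped, and Ptgis at 0.228 ± 0.0441. BF-D had the same first 5 genes, at 442 ± 60.4, 298 ± 34.8, 80.6 ± 2.87, 33.8 ± 0.373 and 6.25 ± 0.828 RPKM. There Ptger2 (1.67 ± 0.302) stood above Hpgd (1.08 ± 0.0913) without overlap, and Ptgis was at 0.123 ± 0.0585. The tables were normalized separately, so the BMSC and BF groups were not tested against each other. Ptger2 was the member with the clearest gap between the sources: its lowest BMSC library had 11.8 RPKM and its highest BF library 1.91.

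**Figure D1:**
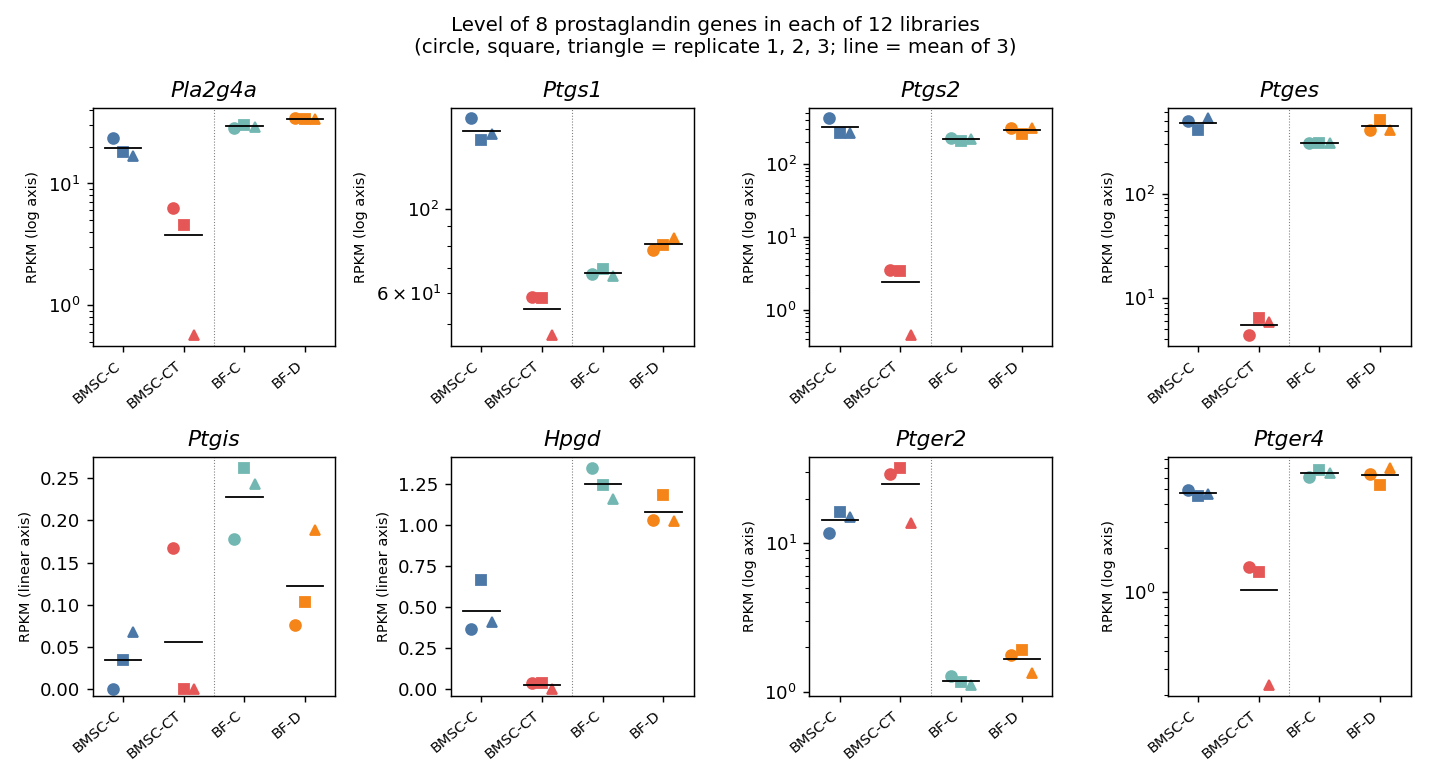
RPKM of each of the 8 genes (y axis, logarithmic except for Ptgis and Hpgd, which have libraries at 0) in the 12 libraries, by group (x axis); symbols are replicates and lines are means of 3. The BMSC-CT libraries lie far below the other 3 groups for Ptgs2 (0.450 to 3.52) and Ptges (4.37 to 6.38), while Ptger2 is at 11.8 to 32.2 in the BMSC groups and 1.11 to 1.91 in the BF groups.

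The comparison of BMSC-CT with BMSC-C asks what CTGF followed by TGF-β1 changes in the cultures labelled as BMSCs. In the following, values are normalized counts, which are reads divided by a size factor per library, listed for replicates 1, 2 and 3. Changes are log2 fold changes on log2(normalized count + 1), which understates the change of low genes, and a gene is called at a limma adjusted p under 0.05 over 16818 genes tested. Of the 8 genes 6 fell and 1 rose, and of all genes tested 1839 (10.9%) fell and 1295 (7.7%) rose. With total-read scaling 4 of the 8 fell and 0 rose, and of all genes 1984 fell and 790 rose, around a median moved from -0.15 to -0.55. After removal of each library's dependence on gene length, 1489 of all genes fell and 2320 rose. The median change of the 8 genes was -2.30, beside -0.15 over all genes tested.

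Pla2g4a (ENSRNOG00000002657), the enzyme that starts the pathway, read 1168, 883 and 869 in BMSC-C and 339, 264 and 53.1 in BMSC-CT. The groups did not overlap, and replicate 3 was far below the other treated libraries. The gene fell by 2.51 on the log2 scale (SE 0.68, limma adjusted p = 0.0481), and without replicate 3 by 1.69 (limma adjusted p = 0.000303). The call on all 6 libraries sits at the threshold: with edgeR the adjusted p was 0.0560, and with TMM scaling in limma 0.0516.

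Ptgs1 (ENSRNOG00000007415), the constitutive cyclooxygenase, read 7030, 6119 and 6685 in BMSC-C and 2628, 2822 and 3636 in BMSC-CT. Every treated library was below every control, and the mean was 2.18-fold lower. The log2 change was -1.14 (SE 0.20, limma adjusted p = 0.0146). After removal of each library's dependence on gene length it was -0.66 and not called (limma adjusted p = 0.158), and without replicate 3 it was -1.28 (limma adjusted p = 0.000201).

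Ptgs2 (ENSRNOG00000002525), the inducible cyclooxygenase, had the largest fall of the 8. It read 27106, 16849 and 18153 in BMSC-C and 246, 256 and 54.8 in BMSC-CT. The lowest control was far above the highest treated library, and the means differed 111-fold. The log2 change was -7.05 (SE 0.61, limma adjusted p = 0.00130), and -6.33 without replicate 3 (limma adjusted p = 7.54e-07).

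Ptges (ENSRNOG00000006320), the inducible prostaglandin E synthase, read 9169, 7301 and 10060 in BMSC-C and 87.7, 138 and 205 in BMSC-CT. The fall was seen in all 3 treated libraries, and the mean was 61.6-fold lower. Replicate 3 was the highest treated library in normalized counts, but replicate 2 was in RPKM (6.38, against 5.86 in replicate 3). The log2 change was -6.01 (SE 0.34, limma adjusted p = 0.000365), and -6.30 without replicate 3 (limma adjusted p = 9.24e-07). Ptgs2 and Ptges were the members whose calls held in every alternative tried, including each library left out in turn.

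Ptgis (ENSRNOG00000008245), prostacyclin synthase, was almost undetected, with 0, 1 and 2 reads in BMSC-C and 5, 0 and 0 in BMSC-CT. The groups overlapped and no change was called (limma adjusted p = 0.973). At this depth a change could not be detected: the ratio of BMSC-CT to BMSC-C was 2.22, with a 95% counting interval from 0.432 to 14.3.

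Hpgd (ENSRNOG00000010610), the enzyme that inactivates prostaglandin E2, was low throughout. It had 11, 19 and 12 reads in BMSC-C and 1, 1 and 0 in BMSC-CT. The groups did not overlap, and the rate was 15.7-fold lower, with a 95% counting interval from 4.10 to 134. The gene fell by 2.98 on the log2 scale (SE 0.52, limma adjusted p = 0.0131), and without replicate 3 by 2.66 (limma adjusted p = 0.00417).

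Ptger2 (ENSRNOG00000050968), the EP2 receptor, was the member that rose. It read 336, 461 and 450 in BMSC-C and 920, 1091 and 752 in BMSC-CT. Every treated library was above every control, and the mean was 2.22-fold higher. The log2 change was 1.14 (SE 0.24, limma adjusted p = 0.0240), and 1.28 without replicate 3 (limma adjusted p = 0.00109). In RPKM, which scales by total reads, replicate 3 was at 13.8 and fell within the controls at 11.8 to 16.3, and with total-read scaling the change was 0.72 and not called (limma adjusted p = 0.204).

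Ptger4 (ENSRNOG00000013240), the EP4 receptor, moved the other way from Ptger2. It read 106, 96.4 and 104 in BMSC-C and 35.3, 34.8 and 9.66 in BMSC-CT. The groups did not overlap, with replicate 3 again lowest, and the mean was 3.84-fold lower. The gene fell by 2.10 on the log2 scale (SE 0.55, limma adjusted p = 0.0432), and without replicate 3 by 1.51 (limma adjusted p = 0.00171). With total-read scaling the adjusted p was 0.0595.

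Without BMSC-CT replicate 3 the count stayed at 6 fallen and 1 risen, while 23.5% of all genes tested fell and 19.5% rose. Leaving out any 1 of the 3 control libraries left Ptgs2 and Ptges as the called members, and without BMSC-CT replicate 2 Hpgd was called as well. In those fits limma adjusted p-values of the other members that lost their call ran from 0.0514 to 0.174, with the same directions. Of all genes tested 28.9% lay below the controls in every treated library and 23.3% above, against 6 and 1 of the 8 genes. In the authors' deposited table the same 7 genes had an adjusted p under 0.05, from 3.19e-48 for Ptges to 0.00791 for Hpgd. Beside these changes, the summed macrophage share of reads was higher in BMSC-CT, with 5 of the 17 markers risen (among them Cd68, Lyz2 and Csf1r), 2 fallen (Adgre1 and Cd74) and 10 not called. Lyz2 weighs most on that sum, with 213653 reads in BMSC-C and 414979 in BMSC-CT. Adgre1 went the other way, with 165404 and 49317 reads. The higher sum therefore does not describe the list as a whole. Without BMSC-CT replicate 3 the list was even, with 8 risen, 8 fallen and 1 not called. Of the stromal markers 2 rose, Col1a1 and Eng, and 5 fell: Cxcl12, Pdgfra, Thy1, Lum and Dcn. The largest of these falls were those of Cxcl12 (log2 -6.98, limma adjusted p = 0.000165) and Pdgfra (log2 -3.14). Leaving that library out gave 3 risen and 6 fallen stromal markers. The part of cell composition in the members' changes was not tested.

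**Figure D2:**
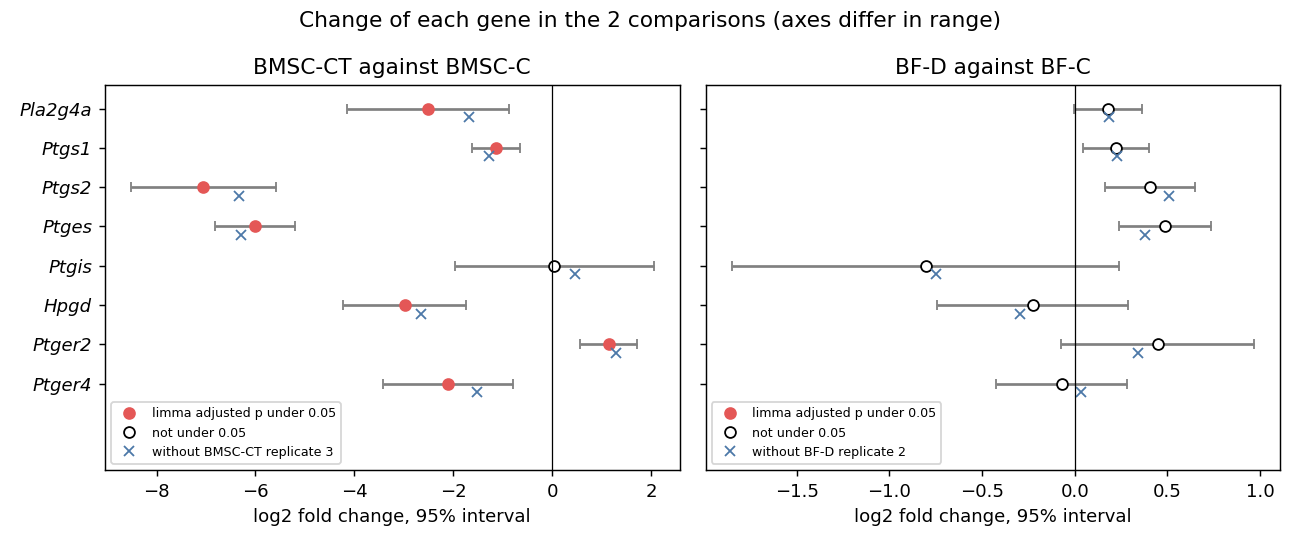
Log2 fold change (x axis) of the 8 genes (y axis) in BMSC-CT against BMSC-C (left) and BF-D against BF-C (right), with 95% intervals from limma; filled points have an adjusted p under 0.05 and crosses leave out the library that stands apart. On the left 7 of 8 points are filled, led by Ptgs2 at -7.05 and Ptges at -6.01; on the right none is filled, and Ptges (0.49), Ptgs2 (0.41) and Ptgs1 (0.22) have intervals above 0.

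Ratios within a library need no scaling between libraries. They were not corrected for each library's dependence on gene length, and the genes compared differ in length (Ptgs2 4373 and Ptgs1 2803 bases). Ptgs2 made up 71.2%, 63.8% and 63.5% of the summed RPKM of both cyclooxygenases in BMSC-C, and 5.66%, 5.50% and 0.956% in BMSC-CT. The cyclooxygenase transcripts were therefore mostly Ptgs2 in every control library and mostly Ptgs1 in every treated one. An exact permutation test of the ratio gave p = 0.1, two-sided, the smallest that 3 against 3 libraries allow.

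The other prostaglandin E synthases, Ptges2 and Ptges3, were not called on all 6 libraries. Ptges took 79.1%, 74.3% and 81.2% of the summed RPKM of the 3 synthases in BMSC-C and 4.06%, 6.46% and 5.95% in BMSC-CT (exact permutation test, p = 0.1, the smallest possible). Ptges2 stood at 899 ± 191 normalized counts in BMSC-C and 1995 ± 804 in BMSC-CT (SD, n = 3) (log2 1.10, limma adjusted p = 0.0654). Ptges3, also known as a co-chaperone, stood at 2524 ± 226 and 1691 ± 389 (log2 -0.60, limma adjusted p = 0.110). Without BMSC-CT replicate 3 Ptges2 rose by 0.79 and Ptges3 fell by 0.76 on the log2 scale (limma adjusted p = 0.0182 and 0.00766).

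The receptor pair shifted toward EP2. Ptger2 made up 70.5%, 78.2% and 76.5% of the summed RPKM of Ptger2 and Ptger4 in BMSC-C and 95.2%, 95.9% and 98.3% in BMSC-CT. The groups did not overlap (exact permutation test, p = 0.1, the smallest possible). In the BF table the balance lay the other way, at 14.7% to 17.4% in BF-C and 16.0% to 26.3% in BF-D, which overlapped (exact permutation test, p = 0.2).

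**Figure D3:**
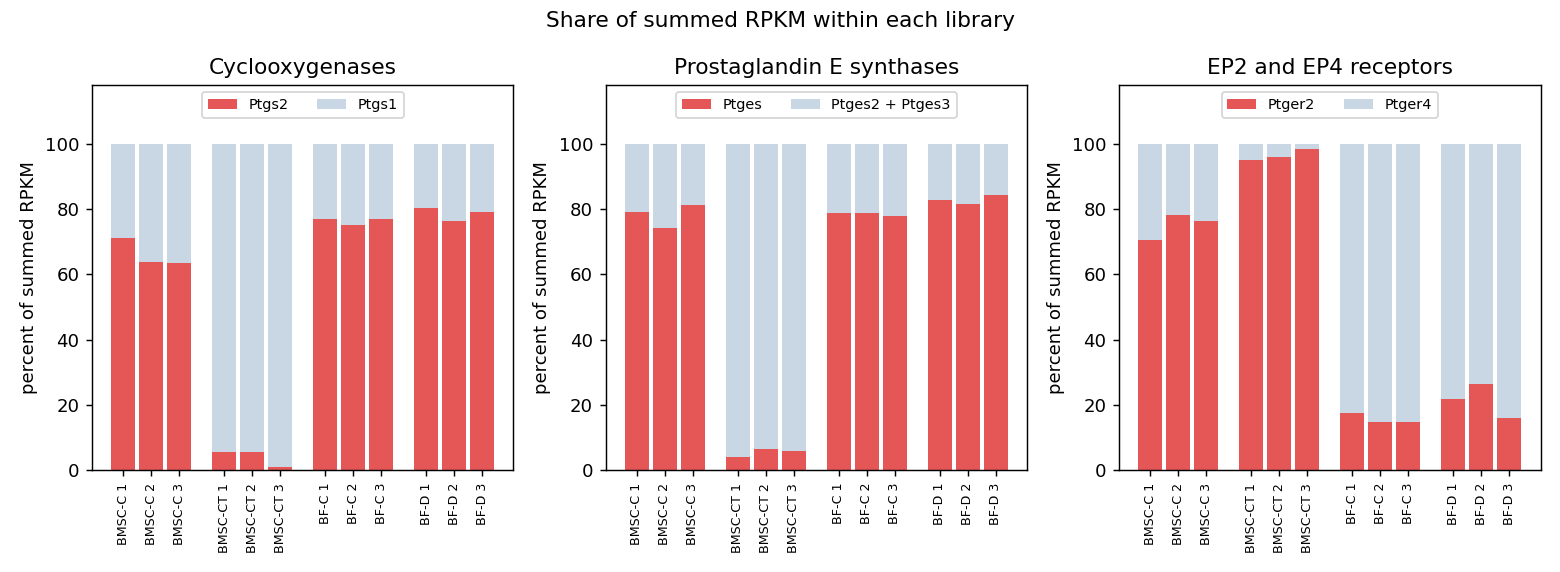
Percent of the summed RPKM (y axis) taken by Ptgs2 against Ptgs1, by Ptges against Ptges2 and Ptges3, and by Ptger2 against Ptger4 in each of the 12 libraries (x axis, group and replicate). Ptgs2 falls from at least 63.5% in BMSC-C to at most 5.66% in BMSC-CT, and Ptger2 exceeds Ptger4 in the 6 BMSC libraries and not in the 6 BF libraries.

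The rest of the pathway was described with 53 further genes, of which 43 could be tested in the BMSC table. Of these 8 rose, 5 fell and 30 were not called, while 7.7% of all genes tested rose and 10.9% fell. The median change was 0.56, beside -0.15 over all genes tested. Leaving out BMSC-CT replicate 3 gave 19 risen and 6 fallen, while 19.5% of all genes tested rose and 23.5% fell. The same all-gene shares stand beside the shorter lists that follow. DESeq2 gave 18 and 5 of 47. The balance depended on the scaling and the libraries: it was 3 risen and 6 fallen with total-read scaling, and 1 and 3 when BMSC-CT replicate 2 was left out. With BMSC-C replicate 1, 2 or 3 left out, it was 1 and 0, 1 and 1, and 2 and 3. The number of all genes called moved as well, from 736 to 7204 with 1 library left out. Shares of all genes are not given beside each of these counts, so they are not read as a result about the pathway. All 13 genes called on 6 libraries kept their call without BMSC-CT replicate 3, and 8 kept it with total-read scaling. Of 8 other phospholipases A2, 3 rose and 0 fell: Pla2g15, the lysosomal form, went from 969 ± 98.8 to 2352 ± 600 normalized counts (log2 1.25, limma adjusted p = 0.0178), and Pla2g5 and Pla2g2d rose at lower levels. Without BMSC-CT replicate 3 the count was 5 risen, and with total-read scaling it was 2, Pla2g2d losing its call (limma adjusted p = 0.162). On all 6 libraries the cytosolic enzyme Pla2g4a was called lower, and none of the other phospholipases tested was. The call of Pla2g4a held in 9 of the alternatives tried and was lost in 9.

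Of 7 other terminal synthases 1 rose and 0 fell. These numbers became 4 and 1 with BMSC-CT replicate 3 left out, and 1 and 1 with total-read scaling. Ptgds, which makes prostaglandin D2, had 0 reads in BMSC-C and 38.0, 51.7 and 74.1 normalized counts in BMSC-CT, at least 60.9-fold higher against a floor of 3 reads over the control group (limma adjusted p = 0.000954). Tbxas1, thromboxane synthase, stood at 607 ± 128 and 1633 ± 813 and missed the threshold (log2 1.34, limma adjusted p = 0.0522). All 3 of its treated libraries were above the controls, and without replicate 3 it was called (0.96, limma adjusted p = 0.00667). Tbxas1 averaged 20.9 RPKM in BMSC-C and 0.0848 in BF-C.

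Of 6 other prostanoid receptors 1 rose and 2 fell. Ptger1, the EP1 receptor, rose from 479 ± 73.4 to 1071 ± 177 (log2 1.16, limma adjusted p = 0.0194). Ptgir, the prostacyclin receptor, fell from 561 ± 32.6 to 172 ± 42.8 (log2 -1.73, limma adjusted p = 0.00881). Ptgfr, the prostaglandin F receptor, was at 427 ± 106 and 85.2 ± 59.3 and fell too (log2 -2.53, limma adjusted p = 0.0266). With total-read scaling the falls of Ptgir and Ptgfr kept their call, while Ptger1 lost it (log2 0.74, limma adjusted p = 0.0756), as did Ptger2 and Ptger4. Without BMSC-CT replicate 3 the list had 2 risen and 2 fallen.

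Of 6 transport and breakdown genes 0 rose and 2 fell. Slco2a1, the transporter that takes prostaglandins into cells before Hpgd acts on them, fell from 133 ± 17.8 to 11.1 ± 7.21 (log2 -3.64, limma adjusted p = 0.00689). Ptgr1, a reductase of the next step, was at 271 ± 17.3 and 102 ± 54.3 and fell as well (log2 -1.54, limma adjusted p = 0.0487). The uptake and first breakdown steps, Slco2a1 and Hpgd, were therefore both lower. Without replicate 3 the list had 1 risen and 2 fallen. Of 8 genes of the lipoxygenase branch, which turns arachidonic acid into leukotrienes, 2 rose and 0 fell, namely Alox5 from 8.47 ± 3.93 to 30.7 ± 0.914 and Lta4h from 998 ± 28.7 to 1925 ± 542. Of 8 genes that store and release arachidonic acid Abhd6 rose and Acsl4, which loads it onto coenzyme A, fell (log2 -1.83, limma adjusted p = 0.00910). The rises of Alox5, Lta4h and Abhd6 were not called with total-read scaling (limma adjusted p = 0.0839, 0.101 and 0.323). Leaving out replicate 3 gave 3 risen and 0 fallen in the first of these lists and 4 and 1 in the second.

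Of 13 genes known to respond to cAMP, the messenger of EP2 and EP4, 0 rose, 10 fell and 3 were not called. Of all genes tested 10.9% fell. Nr4a1, an orphan nuclear receptor, fell from 2400 ± 93.4 to 243 ± 19.4 (log2 -3.30, limma adjusted p = 0.000339). Crem, a cAMP-responsive transcription factor, went from 914 ± 24.3 to 178 ± 51.3 (log2 -2.39, limma adjusted p = 0.00276). Areg, an EGF family ligand, had 43 reads in BMSC-C and 0 in BMSC-CT, at least 10.7-fold lower against a floor of 3 reads over the group. The median of the list was -2.39, beside -0.15 over all genes tested, also with Areg at its bound. Without replicate 3 the count was 12 fallen, while 23.5% of all genes tested fell. These genes also answer to other signals, and the level of cAMP was not measured.

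Of 14 regulators of Ptgs2, 0 rose and 2 fell, a share near the 10.9% of all genes, and without replicate 3 the count was 5 fallen, beside 23.5% of all genes. On all 6 libraries the 2 were Il1rn, the interleukin-1 receptor antagonist, from 3333 ± 432 to 528 ± 109 (log2 -2.67, limma adjusted p = 0.00128) and the transcription factor Egr1 from 1285 ± 134 to 191 ± 54.5 (log2 -2.77, limma adjusted p = 0.00185). Il1b, an inducer of Ptgs2, read 9327 to 18324 in BMSC-CT and 12653 to 19372 in BMSC-C, which overlapped (limma adjusted p = 0.597). In RPKM, which scales by total reads, Il1b did not overlap: it was at 418 to 481 in BMSC-CT and 629 to 911 in BMSC-C. Whether Il1b changed thus depends on the scaling. Il1r1, its receptor, read 5937, 4697 and 3912 in BMSC-C and 713, 550 and 12.9 in BMSC-CT. It was not called on all 6 libraries (log2 -4.76, limma adjusted p = 0.0638) but was without replicate 3 (-2.93, limma adjusted p = 2.12e-05).

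**Figure D4:**
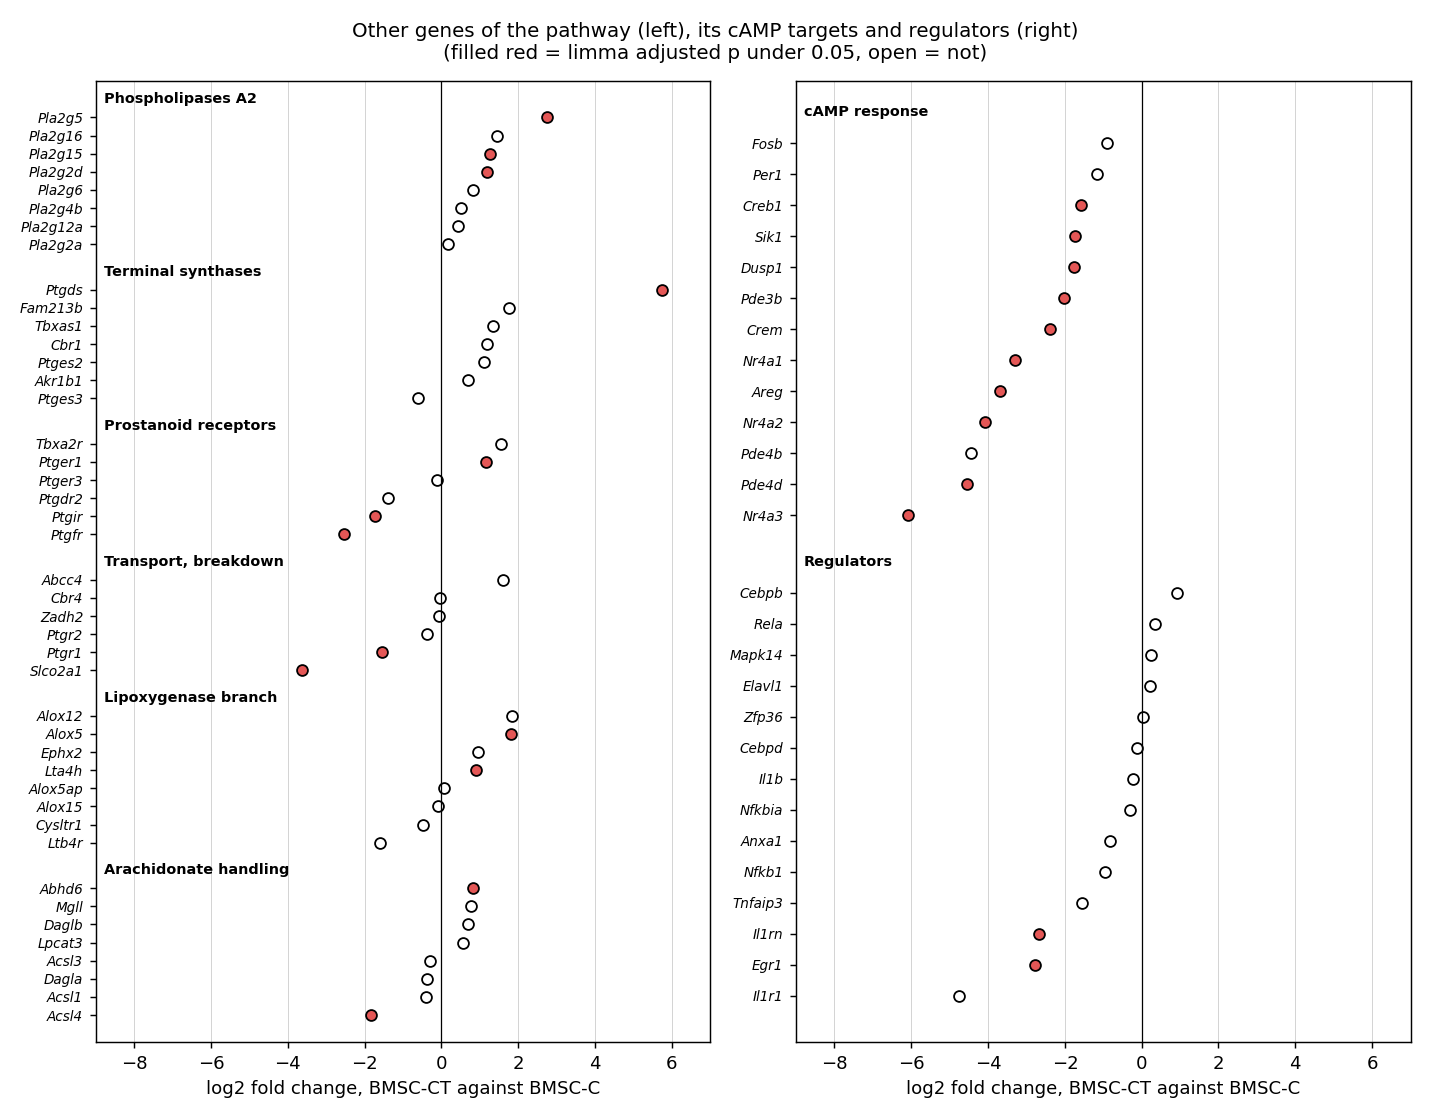
Log2 fold change in BMSC-CT against BMSC-C (x axis) of the other genes tested, grouped by role (left: 6 lists of the pathway; right: cAMP response genes and regulators of Ptgs2); filled points have a limma adjusted p under 0.05. Called pathway genes lie on both sides of 0, whereas all 10 called cAMP response genes and both called regulators lie below it.

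The comparison of BF-D with BF-C asks what docetaxel changes in the fibrotic cells. None of the 8 genes was called by limma on 17076 genes, of which 0.00586% were called higher and 0.00586% lower. Before adjustment 3 of the 8, Ptgs1, Ptgs2 and Ptges, were higher at p under 0.05 and 0 were lower. The share of all genes at that unadjusted threshold is not given here, so no background stands beside this count. By edgeR none was called, and by DESeq2 Ptges was (adjusted p = 0.0479), as were 0.256% of genes tested in the upward direction. Of the 8 genes 5 had all docetaxel libraries above all controls, beside 7.78% of all genes tested, and 0 had them all below, beside 9.04%.

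Ptges read 6514, 6489 and 6438 in BF-C and 8498, 10615 and 8349 in BF-D. The 3 controls lay close together and all docetaxel libraries above them, replicate 2 highest. Its change was 0.49 on the log2 scale, with a 95% interval from 0.24 to 0.74 (limma adjusted p = 0.458), and without replicate 2 it was 0.38 and called (limma adjusted p = 0.000168). In the authors' deposited table its adjusted p was 0.0466, the lowest of the 8 genes.

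Ptgs2 read 16633, 15533 and 16319 in BF-C and 23143, 18675 and 22791 in BF-D. The groups did not overlap, and here replicate 2 was the lowest of the docetaxel libraries. It differed by 0.41 on the log2 scale, with a 95% interval from 0.17 to 0.65 (limma adjusted p = 0.650), and without replicate 2 it was 0.51 and called (limma adjusted p = 2.99e-05). In the authors' deposited gene table the adjusted p of Ptgs2 was 0.158, above the threshold used here. Ptgs2 stood in 5 of 20 KEGG terms of the authors' deposited table for this comparison, among them IL-17 signaling (their adjusted p = 0.00333) and TNF signaling (0.00520). These values belong to the terms and not to Ptgs2 itself.

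Ptgs1 read 3180, 3276 and 3122 in BF-C and 3624, 3716 and 3850 in BF-D, again without overlap. Its change was 0.22 on the log2 scale, with a 95% interval from 0.05 to 0.40 (limma adjusted p = 0.706), and without replicate 2 it was 0.23 and called (limma adjusted p = 0.0253). The balance of the cyclooxygenases stayed with Ptgs2 in every BF library: Ptgs2 took 77.0%, 75.2% and 77.0% of their summed RPKM in BF-C and 80.4%, 76.3% and 79.1% in BF-D, which overlapped (exact permutation test, p = 0.3).

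Pla2g4a read 1625, 1727 and 1644 in BF-C and 1918, 1876 and 1864 in BF-D, which did not overlap (log2 0.18, limma adjusted p = 0.706). Ptger2 read 42.4, 38.4 and 36.4 in BF-C and 57.5, 62.1 and 42.9 in BF-D, where the lowest docetaxel library lay just above the highest control (log2 0.45, limma adjusted p = 0.706). Ptger4 overlapped, at 151, 168 and 158 against 155, 131 and 170, with a log2 change of -0.07. Neither receptor was called without replicate 2.

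Hpgd read 38.1, 35.2 and 32.4 in BF-C and 28.7, 33.0 and 28.3 in BF-D, and Ptgis had 20 reads in BF-C and 10 in BF-D over 3 libraries each. Both overlapped, with log2 changes of -0.23 (limma adjusted p = 0.746) and -0.80 (limma adjusted p = 0.706). Their 95% counting intervals of the ratio of BF-D to BF-C ran from 0.635 to 1.13 and from 0.224 to 1.20. The synthesis gene Ptges and the breakdown gene Hpgd can be set against each other within a library: Ptges had 229, 246 and 266 times the RPKM of Hpgd in BF-C and 396, 431 and 395 times in BF-D. The groups did not overlap (exact permutation test, p = 0.1, the smallest possible). In the BMSC table the ratio was 1372, 608 and 1295 times in BMSC-C and 130 and 175 times in BMSC-CT replicates 1 and 2. Each of the latter values rests on 1 read of Hpgd, replicate 3 had 0, and the ratio was not tested there.

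Without BF-D replicate 2, 3 of the 8 genes were called higher and 0 lower, beside 0.729% and 0.811% of all genes tested, on 2 docetaxel libraries. Of 40 other pathway genes tested on all 6 libraries, 0 were called by limma, edgeR or DESeq2, and before adjustment 0 were higher and 2 lower at p under 0.05. Without replicate 2, 0 of 41 rose and 2 fell: Ptgfr, at 4020 ± 155 in BF-C and 2963 ± 702 in BF-D over all libraries (log2 without replicate 2 of -0.26, limma adjusted p = 0.0229), and Pla2g2a, a secreted phospholipase A2 (-0.25, limma adjusted p = 0.0144). Of the 13 cAMP response genes 0 were called and 3 were higher at an unadjusted p under 0.05. The unadjusted counts of both lists likewise have no share of all genes beside them. Il1b read 11.9, 9.61 and 15.7 in BF-C and 37.3, 55.3 and 44.0 in BF-D (log2 1.80, limma adjusted p = 0.318, DESeq2 adjusted p = 0.00623). Macrophage markers moved beside these values, with 0 of 14 called by limma, 2 called higher by DESeq2 (Cd68 and Lyz2) and a summed share that was higher in every docetaxel library. Their part in the values of Ptges and Ptgs2 was not tested.

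For each member the 3 genes with the most similar pattern over the 12 libraries were sought among 10309 genes, by Pearson's r of log2 values scaled to the listed reads. The points share their library and their group, so r mostly reflects differences between the 4 groups and is given as a description. Ptgs2 was closest to Sulf1, Edn1 and Fgf10 (all r = 0.997), and Ptges to Il6 (0.998), Galnt14 (0.997) and Adm (0.996). Ptgs1 was closest to Pax8 (0.989), Pla2g4a to Slc39a6 (0.997) and Hpgd to Olfm1 (0.989). Ptger2 was closest to Atp6v1b2 (0.996), Mapkapk3 and Efhd2 (both 0.995), and Ptger4 to Nid1 (0.998), Ets1 and Thbs1 (both 0.997). Ptgis, with its few reads, reached 0.868 with Ubfd1.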

How the data were processed

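RNA of 12 rat libraries was sequenced, and the submitters' processing notes name Bowtie 0.12.2 and mm8. mm8 is a mouse build, whereas the tables carry Ensembl IDs of rat, so the build behind the deposited values is not given in the sources used here and no coordinates of theirs are printed. How reads were assigned to genes, and whether strand was used, is not stated. The authors deposited 1 table per comparison (18616 and 19355 genes) with a signal per gene and library, which is a normalized count: 100% of the deposited values gave whole reads, within 0.01, once the size factor of the library was removed. Per the file headers, the same tables hold log2 fold changes and p-values computed by the authors, with no tool named. All 12 value columns were matched to samples, and 0 were left over.

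The design foresaw this unit or raw counts. Genes whose mean reached 1 normalized count were tested on the log2(value + 1) scale in limma 3.58.1 (R 4.3.3, moderated variances with a trend), fitted to the 6 libraries of each table, with Benjamini-Hochberg adjustment over all genes tested and a threshold of 0.05. On the recovered reads edgeR 4.0.16, DESeq2 1.42.0 and limma-voom were run beside it. Other alternatives were total-read and TMM scaling, pseudocounts of 0.5 and 8, no filter, a mean of at least 10, library quality weights, removal of the trend with gene length, a replicate block and each library left out. The procedure was tested on simulated data. RPKM was computed from the recovered reads, the deposited gene length and the listed reads. The members and lists were chosen with earlier results of these data known. Named besides the members are list genes called in either comparison, up to 4 of the highest others per list, and the 3 most similar genes per member; genes named for their call without 1 library or for their split against a member were chosen after their values were seen. Genes with 2 rows (Tnf, Nr3c1 and Tsc22d3) were not counted. No member overlaps another listed gene. Promoters are RefSeq (GRCr8). The deposited protein interaction lists were not used.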

Additional observations from a re-analysis of the deposited data

How the results depend on the processing

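For BMSC-CT against BMSC-C, 7 members, 13 pathway genes and 3134 of all genes were called. Total-read scaling left 4 members (Ptgs1, Ptgs2, Ptges and Hpgd) and moved the median of all genes from -0.15 to -0.55. DESeq2 called 23 pathway genes and 5437 genes, removal of the length trend 22 pathway genes, and library quality weights, whose estimation did not converge, 35 pathway genes and 12357 genes. With 1 library left out, members called ran from 2 to 7, pathway genes from 1 to 25 and all genes from 736 to 7204, the highest without BMSC-CT replicate 3. Ptgis changed sign with total-read scaling (-0.0076), a pseudocount of 0.5 (-0.0866), quality weights (-0.78) and without BMSC-C replicate 1, its values with 1 library left out running from -0.35 to 0.45, and it was never called; its DESeq2 adjusted p is NA.

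For BF-D against BF-C, 0 members, 0 pathway genes and 2 genes were called. Quality weights called 2 members (Ptgs2 and Ptges) and 125 genes, DESeq2 1 member and 70 genes and removal of the length trend 4 genes. A mean of at least 10, limma-voom and the replicate block called 0 genes. With 1 library left out, members called ran from 0 to 3, pathway genes from 0 to 2 and all genes from 0 to 264, the highest without BF-D replicate 2, where Ptger4 changed sign to 0.0321 (range with 1 library left out -0.15 to 0.0321). The cause of these differences was not tested.

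Samples with the same replicate number deviated together at r = 0.199, -0.021 and 0.183 in the BMSC table and 0.014, 0.020 and -0.003 in the BF table. Samples with different numbers ran from -0.225 to 0.0891 and from -0.0348 to 0.0277. With 3 libraries per group, such values cannot tell if the numbers pair the samples, and the labels do not say. With the replicate block Ptger4 lost its call in BMSC-CT (limma adjusted p = 0.0560), and 6 members were called.

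In the 250 bases before the start alone, motif shares were 12.9% (TATA box), 1.59% (cAMP response element), 9.22% (C/EBP), 47.8% (NF-kappaB), 6.34% (AP-1), 5.59% (E-box) and 30.5% (GC box), as the window is shorter.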
